A study of Mus musculus with 6 samples.

Results

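Chaperones of the cytosol and of mitochondria were followed in motor neuron RNA from the brainstem of SOD1 and wild type (WT) mice. The set was a list of 32 genes: 3 small heat shock proteins, 6 genes of the HSP70 and HSP110 families, 6 DNAJ co-chaperones, 5 genes of HSP90 and its co-chaperones, Bag3 and Hsf1, 3 mitochondrial chaperones and 7 subunits of the CCT chaperonin. A probe set, the group of array probes that reads 1 transcript, was taken as a member where the platform annotation gave it exactly 1 symbol and that symbol was on the list. This matched 30 genes and 83 of the 45037 probe sets that were not controls. Hsf1 and Hsp90ab1 were not analysed here. Of the 83 probe sets, 78 passed a filter on low signal, and each of the 30 genes had at least 1 of them; the 5 below the filter were 1 each of Cct3, Cct8, Hsp90aa1, St13 and Hspa9.

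The study had 2 groups of 3 arrays each: RNA from motor neurons of SOD1 mice and RNA from motor neurons of WT mice. The name SOD1 is that of copper-zinc superoxide dismutase, mutations of which in humans cause a form of amyotrophic lateral sclerosis. The sources used here do not give which allele the SOD1 mice carried, the promoter of any transgene, the strain, the age or how the neurons were collected. All 6 RNA samples went through 2 rounds of T7-based amplification. Separate animals are not named for the 3 samples in a group; the p-values therefore reflect spread among these samples alone, which may be technical.

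Chaperones bind proteins that are not yet folded or have lost their fold. Small heat shock proteins hold unfolded clients without using ATP, DNAJ proteins hand clients to HSP70, nucleotide exchange factors of the HSP110 and BAG families let HSP70 release them, and HSP90 takes on clients such as kinases and steroid receptors late in folding. CCT is a ring-shaped cytosolic complex that folds actin and tubulin, and HSP60 with HSP10 forms the corresponding chamber in mitochondria. Under heat or protein-damaging stress the transcription factor HSF1 binds heat shock elements, arrays of inverted nGAAn units, and activates many of these genes. In motor neurons the system is of interest because misfolded SOD1 binds HSP70 and small heat shock proteins, and because human mutations of HSPB1, HSPB8 and DNAJB2 cause inherited motor neuropathies.

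Median deposited signals were 267 to 315 per array, and precision is limited by the 3 arrays in each group. Signals are given below as log2 of the quantile-normalised intensity plus 16, where the background level was 7.21 to 7.61. Pairs of arrays correlated across probe sets at 0.918 to 0.957 inside a group and at 0.901 to 0.937 across groups. The Sod1 probe set with the highest signal read 16.79, 16.69 and 16.84 in SOD1, against 16.33, 16.51 and 16.68 in WT. That was a difference of 0.27 ± 0.10 (SE, limma, adjusted p = 0.257), and the other 3 Sod1 probe sets kept ranged from -0.81 to 0.06. Xist, the RNA made from the inactive X chromosome of females, was 14.28, 14.03 and 6.26 in SOD1 replicates 1 to 3, against 7.26, 6.28 and 6.25 in WT replicates 1 to 3. Sex and genotype are therefore partly confounded. Only SOD1 replicate 3 shares the low Xist level of the WT arrays. With Xist as a covariate, the differences given below thus rest mainly on that 1 SOD1 array.

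Markers of other cell types differed between the groups. Over all genes tested, 0.274% were called (limma, adjusted p under 0.05) and 16.5% had an unadjusted p under 0.05. All SOD1 arrays lay above all WT arrays for 10.7% of all genes and below them for 11.2%. An unadjusted p under 0.05 was found for 19 of 21 microglial and myeloid and 7 of 16 astrocyte markers. It was also found for 8 of 13 oligodendrocyte and 8 of 15 endothelial and smooth muscle markers. Of 21 microglial and myeloid markers tested, 9 were called higher in SOD1 after adjustment and all 21 estimates were positive; their summed signal was 130000 to 262000 in SOD1, against 11900 to 50300 in WT. Summed astrocyte markers were at 311000 to 321000 in SOD1 and 252000 to 280000 in WT. Of these 16, 2 were called, 13 estimates were positive and 3 negative. Summed oligodendrocyte markers were at 268000 to 290000 in SOD1 and 199000 to 234000 in WT. Of these 13, 0 were called, 11 estimates were positive and 2 negative. Endothelial and smooth muscle markers summed to 8550 to 25100 in SOD1 and 35500 to 88400 in WT, with Acta2 and Tpm2 called lower of 15 tested. Motor neuron markers summed to 601000 to 671000 in SOD1 and 654000 to 716000 in WT, with 0 of 14 called, 6 of 14 at an unadjusted p under 0.05 and 9 estimates negative. All SOD1 arrays lay below all WT arrays for Ache, the gene of acetylcholinesterase (log2 difference -1.06, adjusted p = 0.117), Slc18a3, the vesicular acetylcholine transporter (0.501-fold, adjusted p = 0.131), Mmp9 (log2 difference -0.80, adjusted p = 0.21), Nefm (-0.33, adjusted p = 0.171) and Nefh (-0.20, adjusted p = 0.343). Isl1, a motor neuron transcription factor, lay above WT on all SOD1 arrays (0.23, adjusted p = 0.437), Uts2 had the largest positive estimate of the list (2.02, adjusted p = 0.246), and Mnx1 was at background on 3 SOD1 and 2 WT arrays. In such bulk RNA, fewer cells of a type and less RNA per cell cannot be told apart. The part of these other cells in the chaperone values below was not tested.

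No chaperone probe set passed the test. Of 78 member probe sets, 0 had an adjusted p under 0.05 (limma, Benjamini-Hochberg over 27022 probe sets), where 0.185% of all probe sets did (0.0629% higher in SOD1 and 0.122% lower); with 1 probe set per gene the count was 0 of 30, against 0.274% of all genes. The smallest adjusted p was 0.146, for the CCT subunit gene Cct7. At an unadjusted p under 0.05 there were 18 of 78 member probe sets, or 23.1%, against 14.7% of all probe sets; 8 were higher in SOD1 (7.09% of all) and 10 lower (7.58% of all). Probe sets of 1 gene read the same RNA, so these 18 are not independent. Counted by gene, 9 of 30 had an unadjusted p under 0.05 (16.5% of all genes), 3 higher (7.65% of all) and 6 lower (8.89% of all).

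All SOD1 arrays lay above all WT arrays for 12 of the 78 probe sets (10.5% of all probe sets) and below them for 7 (9.81% of all). By gene, for 5 of the 30 all 3 SOD1 arrays lay above all 3 WT arrays, which held for 10.7% of all genes: Hspb8, Hsp90aa1, St13, Hspa9 and Hspe1. For 4 genes all SOD1 arrays lay below all WT arrays, against 11.2% of all genes: Dnajb2, Cct2, Cct3 and Cct7. These were 16.7% and 13.3% of the 30 genes, and the other 21 genes overlapped between the groups. Another Cct2 probe set separated the groups the other way, with all SOD1 arrays above all WT arrays. Among the probe sets, 45 of 78 estimates were above 0, against 49.5% of all. The median difference of the 30 genes was -0.04, with 14 estimates above 0 (49.0% of all genes), against a median of -0.01 and quartiles of -0.34 and 0.31 over the 13123 genes tested. By role, the medians were -0.47 for the small heat shock proteins, -0.04 for HSP70 and HSP110, 0.15 for the DNAJ genes, 0.01 for HSP90 and its co-chaperones, 0.25 for the mitochondrial chaperones and -0.09 for CCT, and Bag3 stood at -0.15.

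**Figure D1:**
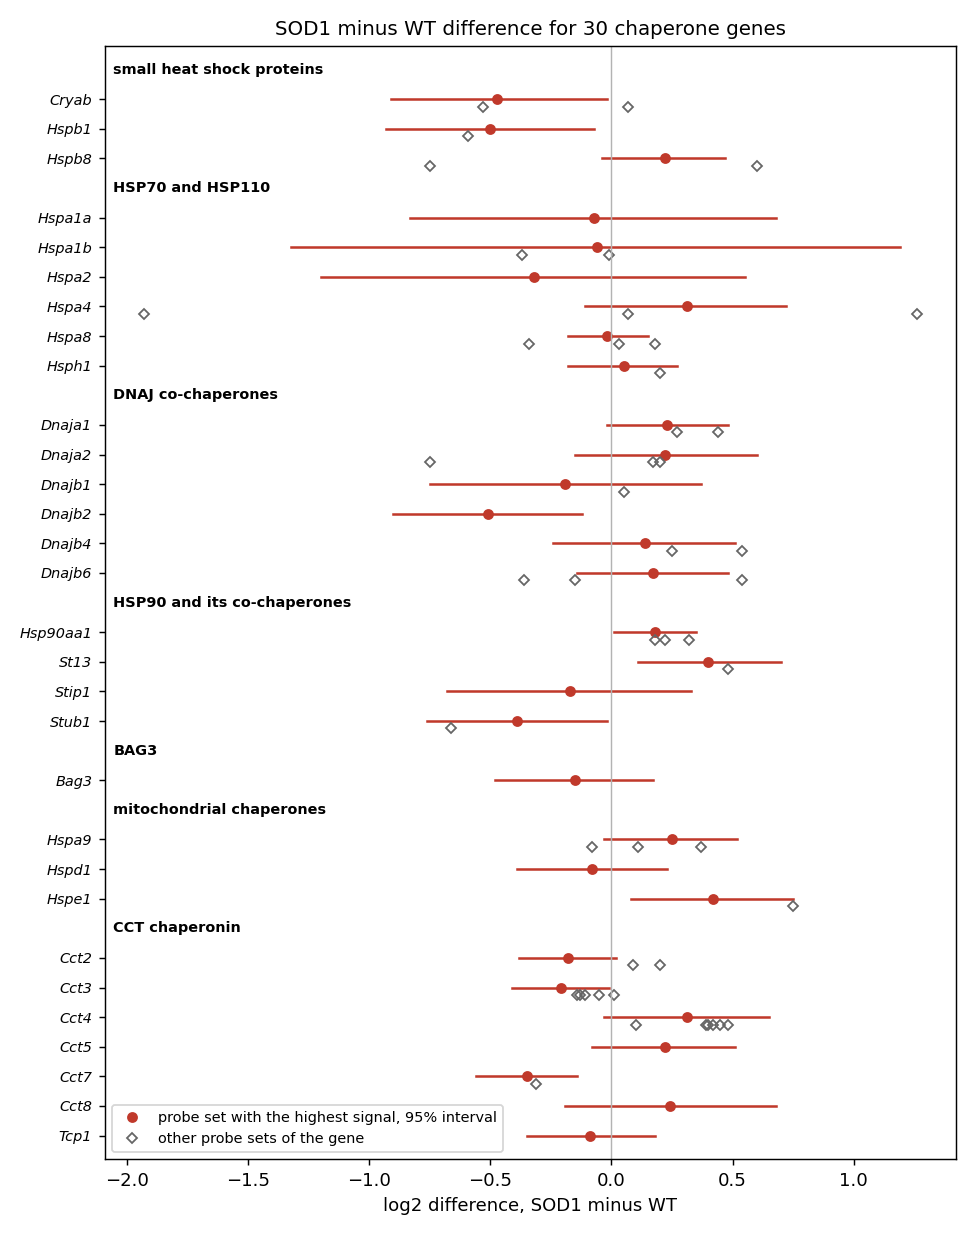
Log2 difference, SOD1 minus WT, on the x axis for 30 chaperone genes grouped by role. Filled circles show the probe set with the highest signal with its 95% interval from limma (n = 3 arrays per group), and open diamonds the gene's other probe sets that passed the filter. The widest interval is that of Hspa1b, -1.32 to 1.19. Hsp90aa1, St13 and Hspe1 are the 3 genes whose interval lies above 0. Those whose interval lies below 0 are Hspb1, Cryab, Dnajb2, Stub1, Cct3 and Cct7.

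The spread between arrays of 1 group limited how small a difference could be seen. The limma standard errors draw each gene's spread towards a trend over all probe sets. They therefore do not follow a gene's own SD alone: the SE was 0.08 for Hsp90aa1 and 0.57 for Hspa1b. The pooled within-group SD of the 30 genes had a median of 0.185 on the log2 scale, against 0.361 over all genes. The genes compared were not matched by signal level, and the part of signal level in this gap was not tested. Among the 30 genes the SD ran from 0.0501 for Hsp90aa1 to 1.08 for Hspa1b. Cct7 (0.0573), Hspa8 (0.0766) and Hsph1 (0.113) were also at the low end, and Hspa1a (0.527), Hspa2 (0.522) and Dnajb1 (0.466) at the high end. Heat-inducible genes stood at both ends. SOD1 replicate 1 was the highest of its group for 14 of the 30 genes, where it was the highest for 34.2% of all genes. SOD1 replicate 2 was the lowest of its group for 14 of the 30, against 34.3% of all genes.

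**Figure D2:**
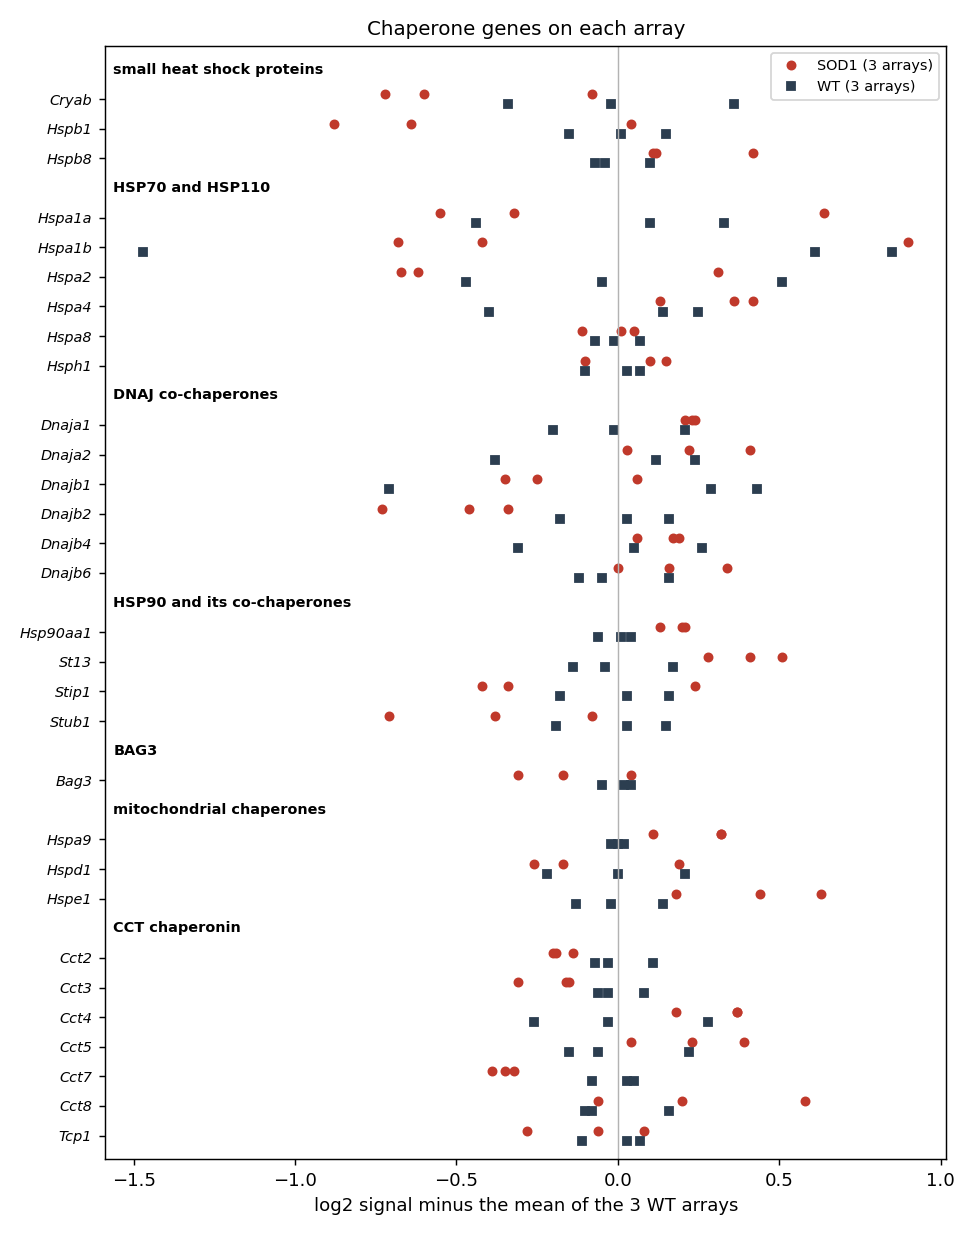
Each gene's log2 signal on the 3 SOD1 arrays (red circles) and the 3 WT arrays (dark squares), minus the mean of its WT arrays, on the x axis; genes are grouped by role. Hspa1b spans the widest range, from 10.94 to 13.31 in log2 signal, while the Cct7 points form tight groups, at 15.91 to 15.98 in SOD1 and 16.22 to 16.35 in WT.

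Among the small heat shock proteins, 2 genes had negative estimates and 1 a positive one. Hspb1, the gene of HSP27, a chaperone of actin filaments and damaged proteins, read 16.37, 15.45 and 15.69 in SOD1, against 16.48, 16.34 and 16.18 in WT. SOD1 replicate 1 lay among the WT arrays and the other SOD1 arrays below them. The difference was -0.50 ± 0.20 (SE, 95% interval -0.93 to -0.07), or 0.708-fold, with an adjusted p of 0.274. Its second probe set read 16.14, 14.93 and 15.05 in SOD1, against 16.04, 16.18 and 15.68 in WT (-0.59 ± 0.27, adjusted p = 0.337), with the same SOD1 array standing high. Without SOD1 replicate 1 the first probe set differed by -0.76 with an adjusted p of 0.0635, and without SOD1 replicate 2 by -0.31.

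Cryab encodes αB-crystallin, which oligodendrocytes and astrocytes also make. It read 15.28, 14.76 and 14.64 in SOD1, against 15.72, 15.34 and 15.02 in WT, and the groups overlapped. Its difference of -0.47 ± 0.20 (95% interval -0.91 to -0.02, 0.724-fold) had an adjusted p of 0.327. A second probe set differed by -0.53 ± 0.31, and another, at background on 1 array of each group, by 0.07 ± 0.63. With Xist as a covariate, a fit that rests mainly on SOD1 replicate 3, the Cryab difference was -0.75. Beside it, the summed oligodendrocyte and astrocyte markers were higher on each SOD1 array than on each WT array, and the summed endothelial and smooth muscle markers lower on each; their part in the Cryab values was not tested.

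Hspb8 works with BAG3 to direct misfolded proteins to autophagy. It read 16.06, 16.05 and 16.36 in SOD1, against 15.90, 16.04 and 15.87 in WT, so that the groups just separated. The difference was 0.22 ± 0.11 (95% interval -0.04 to 0.47, adjusted p = 0.411). It was 0.41 with Xist as a covariate, again resting mainly on SOD1 replicate 3. The other 2 Hspb8 probe sets had opposite signs, 0.60 ± 0.38 and -0.75 ± 0.86. The latter read 11.53, 11.16 and 7.42 in SOD1, against 10.58, 10.32 and 11.45 in WT, with SOD1 replicate 3 far below the other arrays. Bag3 itself read 14.34, 14.20 and 14.55 in SOD1, against 14.46, 14.53 and 14.55 in WT, a difference of -0.15 ± 0.15 (95% interval -0.48 to 0.17, adjusted p = 0.677).

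The stress-inducible HSP70 is encoded by a pair of neighbouring genes on chromosome 17, Hspa1a and Hspa1b, which are near-identical copies. Their promoters are given here to show how alike the copies are and where 2 units of the heat shock element pattern lie. Each window runs from 250 bases before the annotated start to 50 after it (RefSeq, GRCm38.p6, minus strand). The windows are at chr17:34972107-34972406 for Hspa1a and chr17:34959189-34959488 for Hspa1b. Capitals mark 2 inverted GAA units that lie 2 bases apart, at 104 to 97 bases before the start in both.
Hspa1a: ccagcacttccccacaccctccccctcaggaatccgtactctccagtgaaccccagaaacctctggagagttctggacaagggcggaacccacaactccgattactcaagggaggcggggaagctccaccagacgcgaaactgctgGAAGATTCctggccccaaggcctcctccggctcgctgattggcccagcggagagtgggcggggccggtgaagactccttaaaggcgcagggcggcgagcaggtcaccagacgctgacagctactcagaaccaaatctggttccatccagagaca
Hspa1b: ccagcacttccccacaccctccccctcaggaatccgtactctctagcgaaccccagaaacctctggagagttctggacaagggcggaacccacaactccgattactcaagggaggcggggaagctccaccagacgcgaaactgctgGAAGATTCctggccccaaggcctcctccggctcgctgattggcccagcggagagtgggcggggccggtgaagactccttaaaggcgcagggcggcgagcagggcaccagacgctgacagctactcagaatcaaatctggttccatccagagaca
The windows were identical at 296 of 300 bases (98.7%). The 4 differences were C44T, T47C, T249G and C276T, with the base of Hspa1a first and positions counted from 1 at the window's 5′ end.

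Hspa1a read 12.53, 11.57 and 11.34 in SOD1, against 12.22, 11.99 and 11.45 in WT. The highest and the lowest array were both SOD1, and the difference was -0.07 ± 0.34 (95% interval -0.83 to 0.68, adjusted p = 0.945). Hspa1b read 13.31, 11.73 and 11.99 in SOD1, against 13.26, 13.02 and 10.94 in WT, a difference of -0.06 ± 0.57 (95% interval -1.32 to 1.19, adjusted p = 0.97). Its other 2 probe sets gave -0.01 ± 0.52 and -0.37 ± 0.54. On each of the 3 Hspa1b probe sets SOD1 replicate 1 was the highest SOD1 array and WT replicate 3 the lowest WT array. How far the probes of 1 copy also read the other was not tested, so the values of the pair are uncertain as values of separate genes. With Xist as a covariate the differences were -0.56 for Hspa1a and -0.52 for Hspa1b, neither past the threshold. With each array left out in turn the Hspa1b difference ranged from -0.80 to 0.36. The interval includes changes of over 1 log2 unit in either direction.

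**Figure D3:**
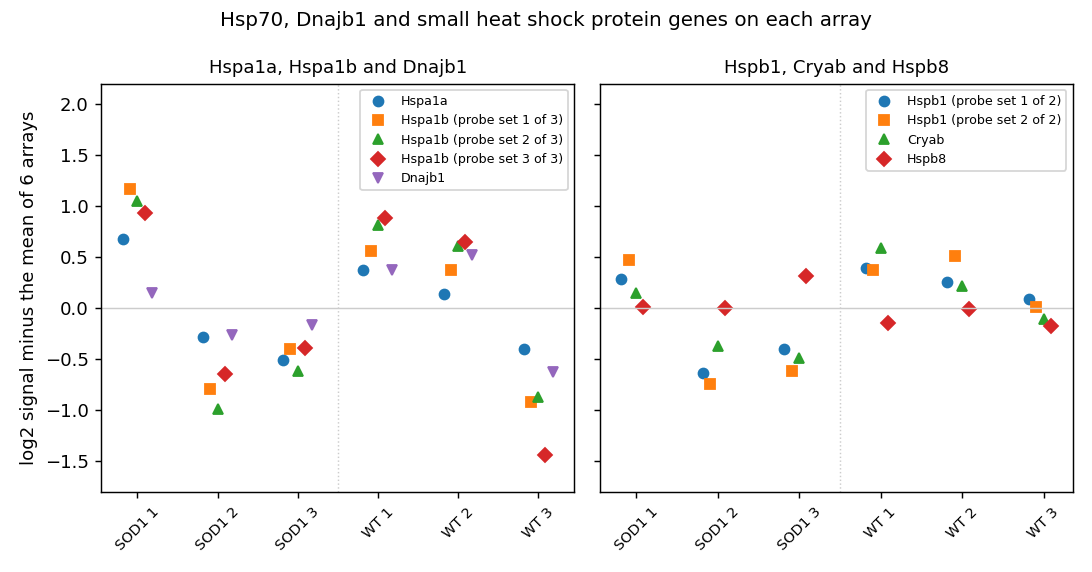
Log2 signal minus the mean of the 6 arrays on the y axis, for each SOD1 and WT array on the x axis; the left panel shows Hspa1a, Dnajb1 and the 3 probe sets of Hspa1b, and the right panel Hspb8, Cryab and the 2 probe sets of Hspb1. The genes plotted were chosen after their values were seen. The Hspa1b points lie high on SOD1 replicate 1 and on WT replicates 1 and 2, and lower on SOD1 replicates 2 and 3 and WT replicate 3.

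Hspa8 encodes the constitutive HSC70 of neurons, which also uncoats clathrin vesicles. It read 17.36, 17.40 and 17.24 in SOD1, against 17.28, 17.42 and 17.34 in WT. The groups overlapped fully, with a difference of -0.02 ± 0.08 (95% interval -0.18 to 0.15, adjusted p = 0.948). Its other 3 probe sets ranged from -0.34 ± 0.33 to 0.18 ± 0.14. Hspa2, best known from the testis, read 9.55, 9.60 and 10.53 in SOD1, against 9.75, 10.17 and 10.73 in WT (-0.32 ± 0.40, adjusted p = 0.744).

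Hspa4 and Hsph1 are HSP110-type exchange factors that release ADP from HSP70. Hspa4 read 14.31, 14.54 and 14.60 in SOD1, against 14.32, 13.78 and 14.43 in WT, where WT replicate 2 stood lowest (0.31 ± 0.19, 95% interval -0.11 to 0.72, adjusted p = 0.485). The other Hspa4 probe sets gave 1.26 ± 0.87, 0.07 ± 0.20 and -1.93 ± 0.83, and of these the first was at background on 1 WT array and the last on 2 SOD1 arrays. Hsph1 read 16.35, 16.40 and 16.15 in SOD1, against 16.28, 16.15 and 16.32 in WT, a difference of 0.05 ± 0.10 (95% interval -0.18 to 0.27, adjusted p = 0.864).

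The DNAJ genes differed in sign. Dnajb2 encodes a J-protein enriched in neurons that carries ubiquitin-interacting motifs. It read 13.79, 13.40 and 13.67 in SOD1, against 14.16, 14.29 and 13.95 in WT, with every SOD1 array below every WT array. The difference was -0.51 ± 0.18 (95% interval -0.90 to -0.12), or 0.703-fold, at an adjusted p of 0.231. Dnaja1, a partner of HSC70 in the cytosol, read 16.29, 16.28 and 16.26 in SOD1, against 16.04, 15.85 and 16.26 in WT (0.23 ± 0.11, adjusted p = 0.386). One of its other probe sets read 14.90, 15.02 and 15.06 in SOD1, against 14.75, 14.35 and 14.56 in WT, which is 0.44 ± 0.15 with an adjusted p of 0.211. All 3 Dnaja1 probe sets had positive estimates.

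Dnaja2, its close relative, read 15.18, 15.37 and 15.56 in SOD1, against 15.27, 14.77 and 15.39 in WT (0.22 ± 0.17, adjusted p = 0.583), and 1 of its other 3 probe sets was negative (-0.75 ± 0.42). Dnajb1, the heat-inducible J-protein that works with HSP70 in taking aggregates apart, read 15.25, 14.84 and 14.94 in SOD1, against 15.48, 15.62 and 14.48 in WT. WT replicate 3 was the lowest of the 6 arrays. The Dnajb1 difference was -0.19 ± 0.26 (adjusted p = 0.774). Dnajb4 differed by 0.14 ± 0.17 and Dnajb6, which holds back polyglutamine aggregates, by 0.17 ± 0.14, with adjusted p-values of 0.748 and 0.611.

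Hsp90aa1, the stress-inducible cytosolic HSP90, was among the most closely grouped genes. It read 17.06, 16.99 and 17.07 in SOD1, against 16.90, 16.80 and 16.87 in WT, with all SOD1 arrays above all WT arrays. The difference was 0.18 ± 0.08 (95% interval 0.01 to 0.35), or 1.14-fold, with an adjusted p of 0.307. A further 2 probe sets also separated the groups, at 0.18 ± 0.08 and 0.22 ± 0.09, and another, at background on 1 WT array, gave 0.32 ± 0.57. The difference depended on scaling: it was 0.35 (adjusted p = 0.109) on values as deposited and 0.46 (adjusted p = 0.103) after median centring.

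St13 encodes HIP, which holds HSP70 in its ADP-bound state. It read 15.14, 15.37 and 15.27 in SOD1, against 14.82, 14.72 and 15.03 in WT, again with no overlap. The difference was 0.40 ± 0.13 (95% interval 0.11 to 0.70), or 1.32-fold, at an adjusted p of 0.213. Its second probe set kept also lay above WT on each SOD1 array, at 12.23, 12.08 and 11.90 in SOD1, against 11.65, 11.45 and 11.67 in WT (0.48 ± 0.24, adjusted p = 0.382). Stip1, the gene of HOP, which bridges HSP70 and HSP90, differed by -0.17 ± 0.23 (adjusted p = 0.772).

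Stub1 encodes CHIP, the ubiquitin ligase that tags clients of HSP70 and HSP90 for the proteasome. It read 15.28, 14.65 and 14.98 in SOD1, against 15.39, 15.51 and 15.17 in WT, with SOD1 replicate 1 inside the WT range. That was -0.39 ± 0.17 (95% interval -0.76 to -0.02), or 0.764-fold, at an adjusted p of 0.32. On its second probe set the groups did not overlap, with 14.58, 13.96 and 14.15 in SOD1, against 15.02, 14.95 and 14.68 in WT. The difference there was -0.66 ± 0.18, or 0.634-fold, with an adjusted p of 0.151.

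Mitochondrial chaperonin is made from a gene pair on chromosome 1, Hspd1 for HSP60 and Hspe1 for its lid HSP10, which are transcribed away from each other from a shared promoter. Both windows are shown because they overlap by 285 of 300 bases (RefSeq, GRCm38.p6), at chr1:55087898-55088197 on the plus strand for Hspe1 and chr1:55087883-55088182 on the minus strand for Hspd1. Capitals mark an overlapping run of inverted GAA units 2 bases apart, the same bases read on either strand. The run lies 89 to 72 bases before the start of Hspe1 and 144 to 127 before the Hspd1 start shown. A second Hspd1 window, of another annotated start (chr1:55088194-55088493, minus strand), holds 0 such matches.
Hspe1: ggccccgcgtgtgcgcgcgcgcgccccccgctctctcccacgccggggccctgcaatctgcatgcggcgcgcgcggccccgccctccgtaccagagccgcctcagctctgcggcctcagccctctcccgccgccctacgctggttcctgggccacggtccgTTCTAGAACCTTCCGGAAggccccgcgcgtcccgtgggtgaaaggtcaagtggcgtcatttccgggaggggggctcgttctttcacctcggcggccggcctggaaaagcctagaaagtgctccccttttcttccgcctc
Hspd1: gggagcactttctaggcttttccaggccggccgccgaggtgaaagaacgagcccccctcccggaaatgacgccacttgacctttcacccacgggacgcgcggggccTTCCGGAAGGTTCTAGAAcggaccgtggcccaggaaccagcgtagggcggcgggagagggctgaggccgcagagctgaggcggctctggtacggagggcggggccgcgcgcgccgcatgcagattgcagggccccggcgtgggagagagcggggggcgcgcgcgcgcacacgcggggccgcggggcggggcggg

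Hspe1 was at 15.29, 14.84 and 15.10 in SOD1, against 14.64, 14.80 and 14.53 in WT, each SOD1 array above each WT array. The difference was 0.42 ± 0.15 (95% interval 0.08 to 0.75), or 1.34-fold, with an adjusted p of 0.244. Its second probe set was at 12.50, 12.17 and 11.89 in SOD1, against 11.52, 11.16 and 11.63 in WT, a difference of 0.75 ± 0.27, or 1.68-fold, with an adjusted p of 0.236. Hspd1 was at 16.39, 16.03 and 15.94 in SOD1, against 15.98, 16.41 and 16.20 in WT, and the groups overlapped (-0.08 ± 0.14, 95% interval -0.39 to 0.23, adjusted p = 0.835). The Hspd1 estimate was positive on values as deposited (0.05), after median centring (0.15), without SOD1 replicate 3 (0.01) and without WT replicate 2 (0.03). Whether the changes of Hspe1 and Hspd1 differ from each other was not tested.

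Hspa9 encodes mortalin, the HSP70 that pulls proteins into the mitochondrial matrix. It read 14.98, 15.19 and 15.19 in SOD1, against 14.87, 14.85 and 14.89 in WT, a tight WT group with every SOD1 array above it. The difference was 0.25 ± 0.13 (95% interval -0.03 to 0.52), or 1.19-fold, at an adjusted p of 0.388. Of its other 3 probe sets kept, 1 also separated the groups (0.37 ± 0.26), and the others gave 0.11 ± 0.15 and -0.08 ± 0.77.

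The 7 CCT subunits on the list, which assemble in fixed proportions, did not share a sign. Cct7 read 15.98, 15.91 and 15.95 in SOD1, against 16.35, 16.33 and 16.22 in WT, with every SOD1 array below every WT array. The difference was -0.35 ± 0.09 (95% interval -0.56 to -0.14), or 0.785-fold, with an unadjusted p of 0.00334 and an adjusted p of 0.146 (limma). Its second probe set separated too, at 14.98, 14.87 and 15.08 in SOD1, against 15.16, 15.38 and 15.31 in WT (-0.31 ± 0.13, adjusted p = 0.295). The Cct7 difference was -0.22 (adjusted p = 0.293) on values as deposited and -0.12 (adjusted p = 0.646) after median centring.

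Cct3 read 16.49, 16.48 and 16.33 in SOD1, against 16.58, 16.61 and 16.72 in WT, a difference of -0.21 ± 0.09 (0.867-fold, adjusted p = 0.329) that was 0.07 after median centring, and its other 5 probe sets kept lay between -0.14 and 0.01. Cct4 read 15.24, 15.24 and 15.05 in SOD1, against 15.15, 14.61 and 14.84 in WT, a difference of 0.31 ± 0.16 (adjusted p = 0.385). All 7 Cct4 probe sets had positive estimates, from 0.10 to 0.48. Cct2 differed by -0.18 ± 0.09, Cct5 by 0.22 ± 0.13, Cct8 by 0.24 ± 0.20 and Tcp1 by -0.09 ± 0.12, with adjusted p-values from 0.392 to 0.783. The other Cct2 probe sets had the opposite sign to the first, at 0.09 and 0.20. The Cct2 probe set at 0.20 had every SOD1 array above every WT array, where the first had every SOD1 array below.

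Agreement between probe sets of 1 gene was limited. Of the 21 genes with over 1 probe set kept, 7 had all estimates above 0, 4 had all below 0 and 10 had both signs. Some probe sets are shared between transcripts by design, and leaving these out left 57 of the 78 and moved the median of the genes to 0.07.

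Promoter windows were available for 24 of the 32 genes, with 34 windows in all. The search counted GAA units on alternating strands 2 bases apart: GAANNTTCNNGAA or TTCNNGAANNTTC for 3 units, and GAANNTTC or TTCNNGAA for 2. Each 3-unit match holds 2-unit matches, and the paired forms cover both strands. A 3-unit match lay in 6 of the 34 windows (17.6%), against 198 of 32851 windows of all genes (0.603%), and the genes were Dnajb6, Hspd1, Hspe1 and Hsph1. A 2-unit match lay in 16 of 34 windows (47.1%), covering 14 genes, against 15.1% of all windows. Windows overlap, so 1 stretch can count more than once: Hspd1 and Hspe1 share theirs, and Dnajb6 and Hsph1 each have overlapping windows. With overlapping windows joined, a 3-unit match lay in 3 of 28 separate regions (10.7%), against 0.595% of all regions, and a 2-unit match in 13 of 28 (46.4%), against 15.6% of all. Hspb1, whose values are given above, has a pair of 2-unit matches, shown in capitals, at 117 to 110 and 97 to 90 bases before its start (chr5:135887669-135887968, plus strand).
Hspb1: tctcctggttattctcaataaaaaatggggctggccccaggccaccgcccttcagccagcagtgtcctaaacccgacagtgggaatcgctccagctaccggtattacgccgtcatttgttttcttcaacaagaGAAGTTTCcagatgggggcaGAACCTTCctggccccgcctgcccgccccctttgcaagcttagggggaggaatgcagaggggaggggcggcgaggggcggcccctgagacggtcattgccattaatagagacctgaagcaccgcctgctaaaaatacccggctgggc
Genes with a match were found at either sign of the difference, from -0.50 for Hspb1 to 0.42 for Hspe1. A match describes letters only and says nothing on binding in these neurons.

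Chaperone genes outside the list were counted the same way. Of 82 further chaperone, co-chaperone and chaperonin genes, 78 had a probe set and 75 were tested, with a median difference of 0.01 and 40 positive estimates (53.3%, against 49.0% of all genes). After adjustment 0 of 75 passed (limma), against 0.274% of all genes. At an unadjusted p under 0.05 there were 19, or 25.3%, against 16.5% of all genes; 10 were higher in SOD1 (7.65% of all) and 9 lower (8.89% of all). All 3 SOD1 arrays lay above WT for 13, or 17.3% (10.7% of all genes), and below WT for 8, or 10.7% (11.2% of all genes). The 6 with the smallest p were Sgta, a glutamine-rich co-chaperone that handles tail-anchored proteins (-1.17 ± 0.28, adjusted p = 0.119), Sugt1, an HSP90 co-chaperone (0.93 ± 0.26, adjusted p = 0.151), Bbs10, a chaperonin-like gene (1.10 ± 0.33, adjusted p = 0.175), the J-protein genes Dnajc12 (0.59 ± 0.18, adjusted p = 0.184) and Dnajc2 (0.60 ± 0.19, adjusted p = 0.199), and the prefoldin subunit gene Pfdn4 (0.54 ± 0.17, adjusted p = 0.196).

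The sign of several medians depended on how the arrays were scaled. The median of the 30 genes was -0.04 after quantile normalisation, 0.10 on values as deposited and 0.21 after median centring, while the median of all genes was -0.01, -0.05 and 0.05 under the same 3 scalings. Probe sets in the top 20% of signal had a median of 0.01, 0.02 and 0.13. The small heat shock proteins had a negative median under all 3 scalings (-0.47, -0.36 and -0.26; -0.66 without SOD1 replicate 1 and -0.28 without WT replicate 1), and the mitochondrial chaperones a positive one (0.25, 0.34 and 0.45). Among single genes, values as deposited and median centring gave -0.36 and -0.26 for Hspb1, -0.28 and -0.18 for Stub1, 0.35 and 0.46 for Dnaja1, 0.50 and 0.60 for St13, 0.50 and 0.61 for Hspe1 and 0.15 and 0.26 for Hspa8. The CCT median was -0.09, 0.04 and 0.15, and that of HSP70 and HSP110 was -0.04, 0.02 and 0.12.

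**Figure D4:**
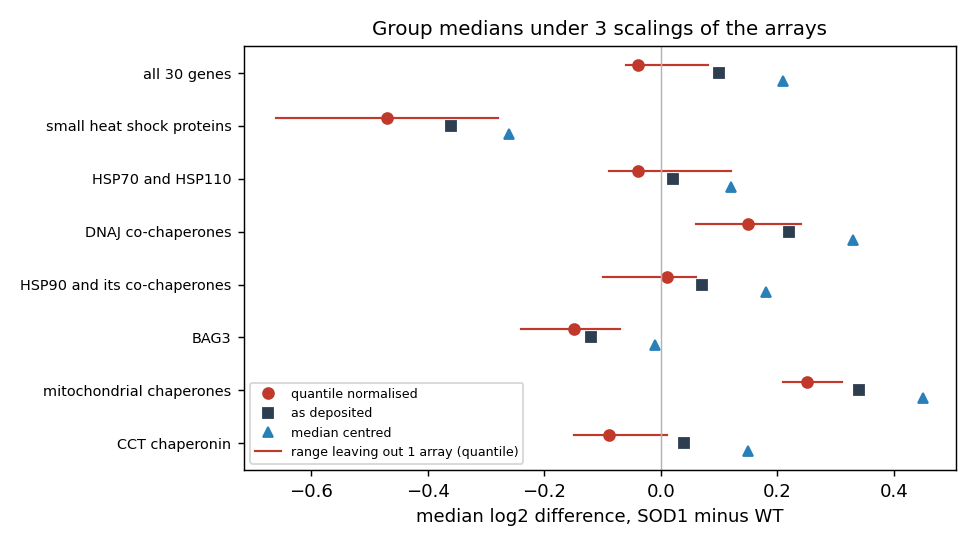
Median log2 difference, SOD1 minus WT, on the x axis for all 30 genes and each role group. Circles, squares and triangles mark quantile normalisation, values as deposited and median centring, and the lines the range on leaving out 1 array. For all 30 genes the 3 scalings gave -0.04, 0.10 and 0.21.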

How the data were processed

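RNA from brainstem motor neurons of 3 SOD1 and 3 WT samples was hybridised to mouse Affymetrix arrays. Deposited were intensities on a linear scale, with 1 value for each probe set on an array; the algorithm behind them is not given in the sources used here. A 2% trimmed mean of 2500.02 was found on all arrays, so the deposited intensities had been scaled to a common mean. Control probe sets (64 of 45101) were left out. Arrays were quantile normalised, 16 was added, log2 was taken, and 27022 probe sets with a mean above the 40th percentile were kept. SOD1 was compared with WT by limma 3.58.1 in R 4.3.3 (eBayes with a variance trend, two-sided, Benjamini-Hochberg, threshold 0.05), with intervals at 95%; this step was tested on simulated data. The probe set with the highest mean signal stands for a gene. Adding 16 understates the change of low genes.

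The members and lists were chosen with earlier results of these data known. All members are named; values per array are given for the 3 with the smallest p in each role group and for fixed stress genes, and Dnajb1, Stip1 and the remaining CCT genes were added after their values were seen. The 6 other chaperones with the smallest p are named. The background level (of 27 bacterial controls, the 95th percentile) was chosen after seeing the data. Symbols were checked through Entrez identifiers in RefSeq (GRCm38.p6), and 0 were changed. Alternatives covered scaling, pseudocount, filter, variance model, array weights, Xist as a covariate, leaving out each array, the replicate number as a block, shared probe sets and gene means. Same-numbered samples did not deviate together (correlations -0.0401 to 0.0285), and the main fit used no pairing. The labels do not say whether the numbers pair the samples, and low correlations cannot exclude it.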

Additional observations from a re-analysis of the deposited data

How the results depend on the processing

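Under each of the 19 alternatives, 0 chaperone probe sets were called. The smallest adjusted p of a member (limma) ran from 0.0632 (the second Hspb1 probe set, without SOD1 replicate 1) to 0.397. With Xist as a covariate it was 0.0652, for an Hspb8 probe set other than the one that stands for the gene. That Xist fit rests mainly on SOD1 replicate 3. Members with an unadjusted p under 0.05 numbered 3 (no variance trend, and without WT replicate 2) to 22 (median centring), against 18. At both settings with 3 of 78, the share of members lay below that of all probe sets (9.88% without WT replicate 2). Without SOD1 replicate 2, 9 of 78 also lay below the share of all probe sets (12.6%). With median centring, 22 of 78 lay above the share of all probe sets (15.9%). The excess of members in the main fit, 18 of 78 against 14.7% of all, thus depended on the setting. Calls over all probe sets, 50 as reported, numbered 0 with no variance trend and 1 without WT replicate 2. With the replicate number as a block 0 members were called, the smallest adjusted p was 0.163, 76 probe sets were called in all and no median moved. The 30-gene median was 0.10 as deposited, 0.21 with median centring, 0.05 with Xist, 0.07 without shared probe sets, and -0.06 to 0.08 leaving out 1 array. Median centring also gave Bag3 -0.01, CCT 0.15, DNAJ 0.33, HSP70 and HSP110 0.12, HSP90 0.18 and mitochondrial chaperones 0.45. Xist as a covariate, where the differences rest mainly on SOD1 replicate 3, gave Bag3 0.02, CCT 0.08 and HSP90 -0.09. The CCT median was 0.04 as deposited, 0.09 without shared probe sets and 0.04 with gene means, and DNAJ 0.01 with gene means. Leaving out 1 array, medians ran from -0.66 to -0.28 (small heat shock proteins), 0.06 to 0.24 (DNAJ), -0.15 to 0.01 (CCT), -0.09 to 0.12 (HSP70 and HSP110) and -0.10 to 0.06 (HSP90). Among single genes, none of them called, the sign turned for Hspa8 (0.15 as deposited, 0.26 with median centring, 0.18 without shared probe sets), Hspd1 (0.05 as deposited, 0.15 with median centring), Cct3 (0.07 with median centring), Hspa2 (0.32) and Hsph1 (-0.09) with Xist, and Dnaja2 (-0.04) and Hspa4 (-0.07) with gene means. Leaving out 1 array, differences ranged from -0.43 to 0.16 for Hspa1a, -0.80 to 0.36 for Hspa1b, -0.05 to 0.03 for Hspa8, -0.21 to 0.03 for Hspd1 and -0.003 to 0.12 for Hsph1. The cause of these shifts was not tested. With 3 arrays per group, an exact permutation test of 1 value cannot go below p = 0.1.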
